A study of Mus musculus with 16 samples.

Results

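Hox genes, the homeodomain transcription factor genes that lie in 4 clusters and record position along the body axis, were examined in cultured mouse sensory neurons. They were taken as every row of the count table whose mouse symbol is Hoxa, Hoxb, Hoxc or Hoxd followed by a number, which gave 39 genes of 55356 rows. The 11 Hoxa genes lie on chromosome 6, the 10 Hoxb genes on chromosome 11, the 9 Hoxc genes on chromosome 15 and the 9 Hoxd genes on chromosome 2. The neurons came from dorsal root ganglia (DRG) of CD1 mouse embryos and had been cultured for 6 days in vitro on poly-D-lysine and laminin with nerve growth factor, 5-fluoro-2'-deoxyuridine and uridine. All 16 libraries share this background. The nocodazole group received DMSO and 15 min later 200 nM nocodazole, which depolymerises microtubules. In the inhibitor group, 500 nM GNE3511, which blocks the axon injury kinase DLK (dual leucine zipper kinase), was followed by DMSO, and in the inhibitor plus nocodazole group it was followed by 200 nM nocodazole. The DMSO group received DMSO at both steps. The second step lasted 16 h, each group had 4 replicates, and the labels do not say whether replicates came from separate cultures. A p-value then reflects only how far these libraries spread, which may be technical. Neither the embryonic stage nor the axial levels of the ganglia that were pooled is given.

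Hox genes of a cluster are ordered along the chromosome as they are expressed along the body, with paralog group 1 at the anterior end and paralog group 13 at the posterior end. Genes of the same number in different clusters are paralogs that descend from a common ancestral gene. In the embryo their combined expression gives hindbrain segments, spinal motor neuron columns and vertebrae their regional identity. DRG neurons keep a Hox code of the level at which their ganglion formed, and Hox proteins bind DNA with the TALE cofactors of the Pbx, Meis and Pknox families. Polycomb complexes keep Hox genes silent outside their domain, and MLL complexes keep them active within it.

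In DMSO libraries the Hox code reached from the anterior to the lumbar paralog groups and ended between groups 10 and 11. Levels were compared between genes as CPM (counts scaled to a common library size) per kilobase of exon, and 23 of the 39 genes reached 1 CPM per kb. Over all exons, Hoxa5, which in mouse patterns the cervical and upper thoracic region and the airways, averaged 17.7 ± 0.834 CPM per kb (SD, n = 4), with 17.4, 16.7, 18.8 and 17.7 in the 4 libraries. Hoxa7, a gene of the thoracic region, followed at 17.3 ± 0.656 CPM per kb with 16.6, 17.2, 17.1 and 18.2. Hoxd1, which in mouse is expressed in developing pain-sensing neurons under the control of nerve growth factor, stood at 16.4 ± 3.05 CPM per kb with 16.3, 20.6, 13.5 and 15.3. The libraries of Hoxd1 overlapped with those of both others and Hoxa5 with Hoxa7, so their order is not resolved. All lay above the fourth gene, Hoxc10, a lumbar gene, which had 6.06, 5.72, 7.71 and 7.38 CPM per kb and overlapped with Hoxa9 at 5.49, 5.48, 5.97 and 5.49 CPM per kb. This order depends on the length used. Over the longest transcript in place of all exons, Hoxa7 had 23.5 to 25.8 CPM per kb, above Hoxa5 at 16.7 to 18.8, and Hoxa9 had 9.48 to 10.3 CPM per kb, above Hoxc10 at 5.72 to 7.71. Over all exons, Hoxb7 was the highest gene of the Hoxb cluster at 5.49 ± 0.866 CPM per kb.

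The posterior border was sharp in every cluster that has genes on both sides of it. Hoxc10 (6.72 ± 0.973), Hoxa10 (5.04 ± 0.545) and Hoxd10 (1.47 ± 0.121 CPM per kb) are lumbar genes that shape the hindlimb level. Of the next paralogs, Hoxc11 had 0.323, 0.101, 0.274 and 0.200 CPM per kb and Hoxd11 had 0.111, 0.146, 0.224 and 0.250 CPM per kb in DMSO libraries, with no overlap with Hoxc10 or Hoxd10. Hoxa11 had 1 read in 1 DMSO library and none in the other 3. The sum over paralog group 10 was 13.2 ± 1.38 CPM per kb, that over group 11 was 0.411 ± 0.112 and that over group 13 was 0.0785 ± 0.0339 (SD, n = 4). The most posterior genes that passed the filter on low counts were Hoxa10, Hoxb9, Hoxc11 and Hoxd11. Since a culture pools ganglia, a level does not say which share of neurons expressed the gene.

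By cluster, Hoxa genes held 46.2 ± 0.791% of the summed Hox level per kb in DMSO libraries, Hoxd genes 28.4 ± 2.69%, Hoxb genes 14.4 ± 1.38% and Hoxc genes 11 ± 0.627%. By axial class, paralog groups 4 to 8 held 58.2 ± 0.905%, groups 9 to 13 held 21.4 ± 1.82% and groups 1 to 3 held 20.3 ± 2.58%. Hoxd1 made up most of the anterior class. Hoxb1, a paralog of Hoxd1, had no more than 2 reads in any library.

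**Figure D1:**
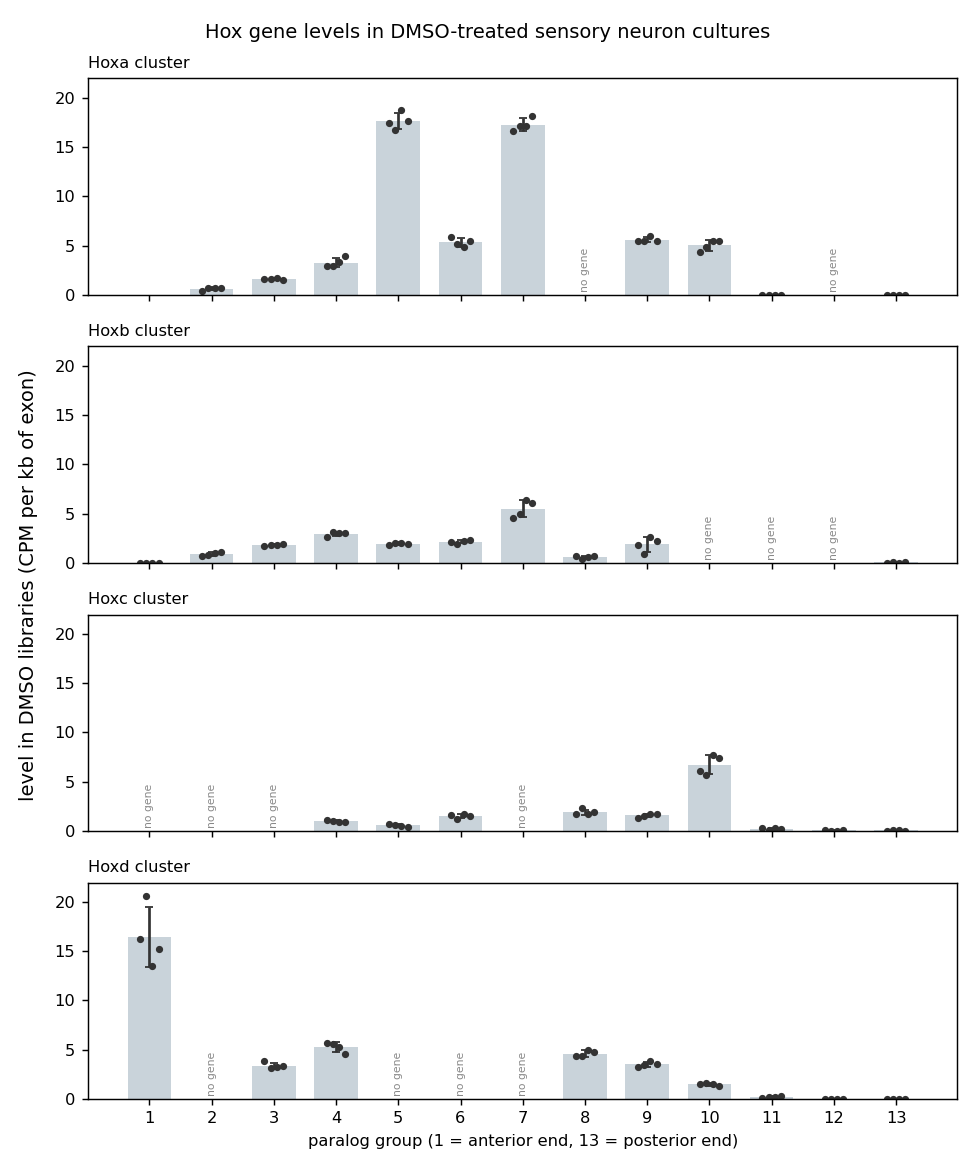
Level of Hox genes in DMSO libraries, in CPM per kb of exon, by paralog group and cluster. Bars are means, error bars the SD of 4 libraries and dots the libraries. Hoxa5, Hoxa7 and Hoxd1 stood highest, and those genes of groups 11 to 13 that a cluster has were near 0 in all 4 clusters.

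Of the 39 genes, 31 passed the filter and were tested among 19156 genes. The other 8 were Hoxa11, Hoxa13, Hoxb1, Hoxb13, Hoxc12, Hoxc13, Hoxd12 and Hoxd13, which had at most 11 reads in any of the 16 libraries. Hoxa13 had 0 reads in all 16. For 1 library taken alone, 0 reads allow up to 3 reads, or 0.0691 to 0.0976 CPM depending on the library. All 16 together allow a lower level than that. These 8 were not tested. Among them Hoxc13 had 7, 6, 9 and 11 reads in nocodazole libraries and 2, 3, 6 and 2 reads in DMSO libraries, or 0.179 to 0.358 CPM and 0.0620 to 0.138 CPM without overlap. With no filter on low counts Hoxc13 was tested and was not called. Libraries held 30987962 to 43321421 counts. On the first principal component of all genes, with 39.9% of the variance, nocodazole libraries lay at 56.3 to 66.0 and the 12 others at or below 9.94, with inhibitor plus nocodazole replicate 1 at 9.94 and its 3 fellow replicates at -29.8 to -26.7. Prph, a peripheral neuron filament gene, averaged 2907 CPM in DMSO libraries, and Sox10, the defining glial factor, 0.152 CPM, which fits the label of sensory neurons. Spinal cord markers, 12 genes of cells that also carry a Hox code, did not pass the filter and summed to 0.239 to 1.30 CPM in nocodazole libraries and 0.117 to 0.373 CPM in DMSO libraries.

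Nocodazole without inhibitor lowered many Hox genes and raised 1 of them. Those that fell lay in all 4 clusters and all 3 axial classes. The counts for Hoxc (2 of 7 tested) and for paralog groups 9 to 13 (3 of 9 tested) do not set these apart from all tested genes. Relative to DMSO, 17 of the 31 tested Hox genes fell (54.8%) and Hoxb9 rose, while among all tested genes 19.0% fell and 18.6% rose, 37.5% in all (edgeR adjusted p below 0.05). The median log2 change of the tested Hox genes was -0.44, against 0.01 for all tested genes. In 13 of the 31 all nocodazole libraries lay below all DMSO libraries, as in 18.9% of all tested genes, and Hoxb9 was the only tested Hox gene with all nocodazole libraries above, as in 18.0% of all tested genes. The summed Hox level was 229.7, 235, 204 and 224 CPM in nocodazole libraries, against 299, 306, 316 and 314 CPM in DMSO libraries. The groups did not overlap, and the ratio of their means was 0.722.

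The anterior class, paralog groups 1 to 3, had 5 of 7 tested genes lower, against 19.0% of all tested genes, and a median log2 change of -0.67. Hoxd1 changed most among all Hox genes that fell. It had 13, 12.1, 9.22 and 10 CPM in nocodazole libraries and 30.4, 38.4, 25.1 and 28.4 CPM in DMSO libraries. No libraries overlapped, and the log2 change was -1.46 ± 0.204 (SE, edgeR adjusted p = 3.83e-05), which leaves 0.363 of the DMSO level. Hoxa3, needed in mouse for organs of the pharyngeal pouches, had 5.65, 6.85, 4.35 and 5.53 CPM with nocodazole, against 9.33, 9.78, 10.1 and 9.09 CPM with DMSO (log2 change -0.77 ± 0.120, edgeR adjusted p = 9.83e-05). Hoxb3 had 4.44, 4.73, 4.44 and 4.36 CPM with nocodazole and 7.06, 7.70, 7.62 and 8.07 CPM with DMSO (log2 change -0.76 ± 0.0908, edgeR adjusted p = 8.13e-06). Both pairs of groups were fully separated, and the 4 nocodazole values of Hoxb3 lay close together. In the GENCODE M21 annotation, antisense transcripts overlap exons of Hoxa3 (25.4% of their length), Hoxb3 (52.9%), Hoxb2 (27.3%) and the middle-class gene Hoxa7 (20.4%). Strand use in counting is not given, so reads of these genes cannot be told apart from antisense reads there. Smaller overlaps include 16.0% antisense for the middle-class gene Hoxa4 and 15.0% on the same strand for Hoxa2. Of the 39 Hox genes 16 have some overlap, and 7 of the 17 that fell have none. The anterior class also held Hoxa2, which sets second pharyngeal arch identity, and Hoxd3, with log2 changes of -0.67 and -0.51. The call of Hoxa2 was lost in 5 of the 16 fits that left out 1 library. Hoxd3 and the middle-class gene Hoxd4 share exons with each other and with Gm28230 on the same strand, over 62.3% and 52.3% of their length. How shared reads were counted is not given, so it is uncertain whether the calls of Hoxd3 and Hoxd4 are separate. Hoxb2 did not pass the test (log2 change -0.31 ± 0.169, edgeR adjusted p = 0.161).

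In the middle class, paralog groups 4 to 8, all 15 genes were tested, 9 fell and none rose, with a median log2 change of -0.43. Among all tested genes 19.0% fell and 18.6% rose. Hoxa5, one of the 3 highest genes per kb, had 17.4, 16.7, 19.8 and 19.2 CPM in nocodazole libraries, against 32.7, 31.4, 35.2 and 33.2 CPM in DMSO libraries. Its groups lay far apart relative to their spread (log2 change -0.86 ± 0.0944, edgeR adjusted p = 3.54e-06). Hoxa7 had 39.3, 35.1, 32.5 and 39.6 CPM with nocodazole and 47.8, 49.4, 49.3 and 52.3 CPM with DMSO. It fell by a smaller step of -0.44 ± 0.0761 on the log2 scale (edgeR adjusted p = 0.000268), again without overlap. Hoxa4 had 3.37, 3.11, 3.48 and 3.55 CPM with nocodazole, against 4.57, 4.69, 5.25 and 6.30 CPM with DMSO (log2 change -0.62, edgeR adjusted p = 0.00157). Hoxb6 had 2.65, 2.84, 2.66 and 3.15 CPM with nocodazole, against 4.20, 3.72, 4.33 and 4.62 CPM with DMSO (log2 change -0.58, edgeR adjusted p = 0.00489). The remaining 5 that fell were Hoxa6, Hoxb5, Hoxc6, Hoxc8 and Hoxd4, with log2 changes between -0.68 and -0.34. The calls of Hoxb5, Hoxc6 and Hoxd4 were lost in 7, 5 and 4 of the 16 fits that left out 1 library, and all 3 when only nocodazole and DMSO libraries were fitted, which left 14 Hox genes lower. Of these 5, Hoxc6 and Hoxc8 specify motor neuron pools of the forelimb level in mouse. Hoxb7, the leading Hoxb gene, had 7.81, 9.33, 7.34 and 5.24 CPM with nocodazole and 7, 7.70, 9.79 and 9.40 CPM with DMSO. Its groups overlapped (log2 change -0.19 ± 0.164, edgeR adjusted p = 0.385).

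The posterior class, paralog groups 9 to 13, had 9 tested genes, of which Hoxa9, Hoxa10 and Hoxd10 fell and Hoxb9 rose. Among all tested genes 19.0% fell and 18.6% rose, and with 9 genes these counts do not set the class apart. Hoxa10 had 8.08, 10.8, 5.89 and 7.42 CPM in nocodazole libraries and 14.3, 15.8, 18.0 and 17.8 CPM in DMSO libraries (log2 change -1.03 ± 0.144, edgeR adjusted p = 3.69e-05). Hoxa9 had 18.6, 22.3, 11.8 and 16.1 CPM with nocodazole, against 30.6, 30.6, 33.3 and 30.6 CPM with DMSO (log2 change -0.86 ± 0.131, edgeR adjusted p = 8.3e-05). Hoxd10 had 1.82, 1.56, 1.30 and 1.59 CPM with nocodazole, against 2.80, 2.84, 2.65 and 2.36 CPM with DMSO (log2 change -0.76 ± 0.133, edgeR adjusted p = 0.000287). In these 3 genes every nocodazole library was lower than every DMSO library, and nocodazole replicate 3 was the lowest. Hoxc10, also a lumbar gene, had 12.3, 10.5, 12.2 and 10.9 CPM with nocodazole and 11.6, 10.9, 14.7 and 14.1 CPM with DMSO. Its groups overlapped, with a log2 change of -0.16 ± 0.114 (edgeR adjusted p = 0.286), whose 95% interval of -0.38 to 0.06 leaves out the change of its paralogs Hoxa10 and Hoxd10. The border genes Hoxc11 (log2 change -0.60 ± 0.367) and Hoxd11 (-0.01 ± 0.298) had 5 to 24 and 15 to 61 reads per library over all 16, and their changes were not resolved at this depth.

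Hoxb9, a gene of the thoracic region and the rib cage, went against the rest. It had 22.1, 24.9, 17.2 and 17.8 CPM in nocodazole libraries, against 4.73, 2.17, 6.63 and 5.77 CPM in DMSO libraries. No libraries overlapped, and the rise was 4.23-fold (log2 change 2.08 ± 0.385, edgeR adjusted p = 0.000481). The mitochondrial share of counts was 1.36%, 1.5%, 0.875% and 0.977% in nocodazole libraries, against 1.07%, 0.834%, 0.909% and 0.765% in DMSO libraries, and the 2 nocodazole libraries with the higher share also had the higher Hoxb9. Nocodazole replicates 3 and 4, whose share lay within the DMSO range, had Hoxb9 at 17.2 and 17.8 CPM, above every DMSO library. The part of the mitochondrial share in this rise was not tested. With 1 library left out the log2 change was 1.84 to 2.28. Per kb, Hoxb9 ranked 18th of the 39 genes in DMSO libraries. Its exons overlap no other annotated gene in GENCODE M21.

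**Figure D2:**
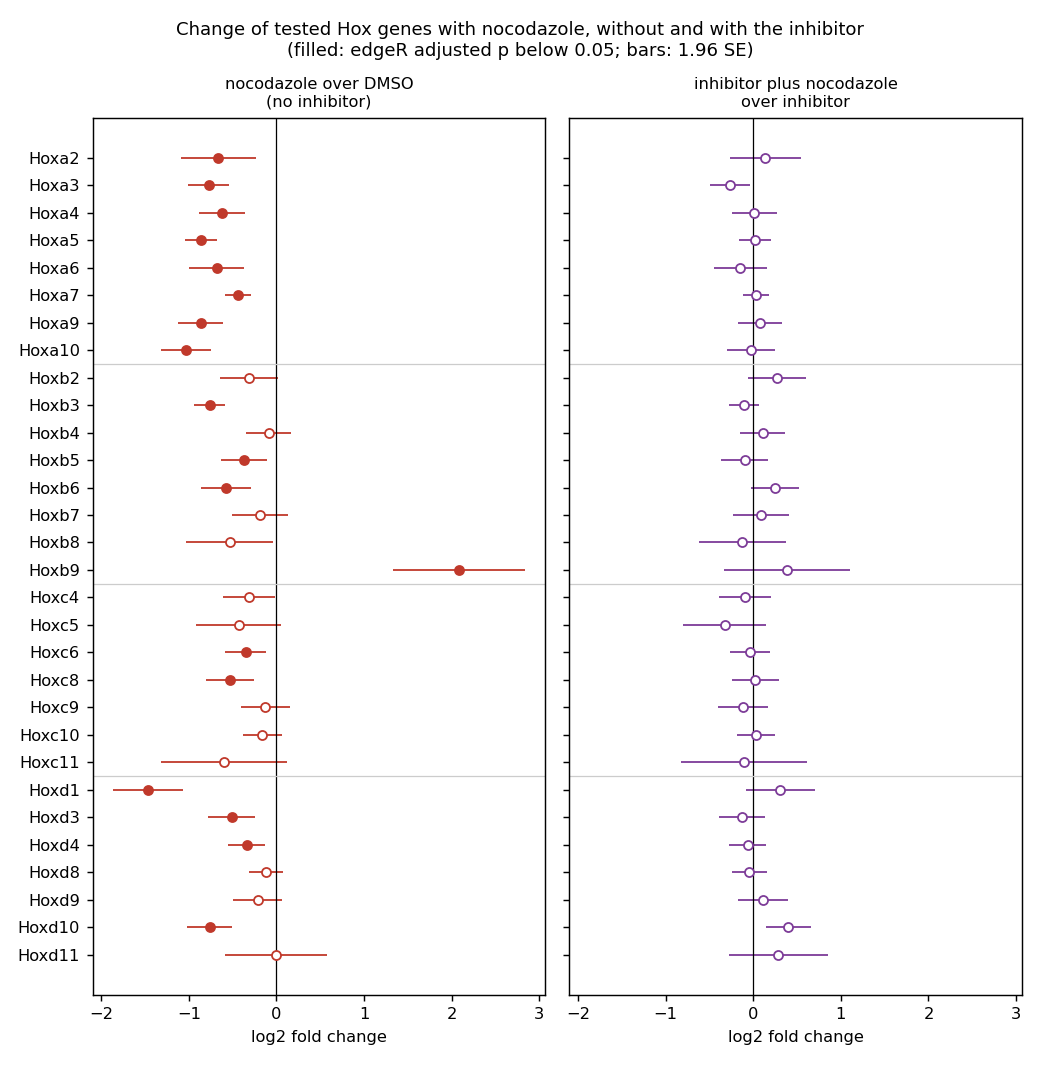
Log2 fold change of tested Hox genes for nocodazole over DMSO (left) and for inhibitor plus nocodazole over inhibitor (right), with bars for the 95% interval and filled points where the edgeR adjusted p was below 0.05. On the left 17 genes were lower and Hoxb9 higher, and on the right none was called.

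By cluster, nocodazole lowered 8 of 9 tested Hoxa genes (median log2 change -0.68), 3 of 8 Hoxb genes (-0.34), 2 of 7 Hoxc genes (-0.35) and 4 of 7 Hoxd genes (-0.34). Among all tested genes 19.0% fell, and the count of Hoxc genes does not set that cluster apart. The call of Hoxc6 was also lost in 5 of the 16 fits that left out 1 library. The summed Hoxa level was 93.6 ± 8.27 CPM in nocodazole libraries and 152 ± 5.60 CPM in DMSO libraries (SD, n = 4), a ratio of 0.617 without overlap. The Hoxd sum was 53.8 ± 1.77 CPM with nocodazole and 83.9 ± 4.97 CPM with DMSO, a ratio of 0.641 without overlap. The Hoxc sum was 25.4 ± 1.16 CPM with nocodazole and 30.3 ± 1.77 CPM with DMSO, a ratio of 0.838 without overlap. The Hoxb sum was 50.1 ± 5.62 CPM with nocodazole and 42.7 ± 4.63 CPM with DMSO and overlapped, with Hoxb9 higher and Hoxb3, Hoxb5 and Hoxb6 lower. The Hoxa share of all Hox CPM was 39.9 to 43.2% in nocodazole libraries and 48.5 to 49.7% in DMSO libraries. The Hoxb share was 20.3 to 24.6% in nocodazole libraries and 12.7 to 14.8% in DMSO libraries.

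Of 17 tested sensory neuron markers, 9 fell with nocodazole (52.9%), Avil rose and 7 did not pass the test, while among all tested genes 19.0% fell and 18.6% rose. They had a median log2 change of -0.45 and a summed level of 7326 to 8206 CPM in nocodazole libraries, against 10369 to 11433 CPM in DMSO libraries. Those of lowest adjusted p included Prdm12, a nociceptor transcription factor gene (log2 change -0.78), and Elavl4, a neuronal RNA-binding protein gene (-1.31). In bulk RNA, fewer neurons and less of a transcript per neuron cannot be told apart. Markers of Schwann cells and satellite glia had 1 of 6 tested genes higher and 1 lower. They summed to 1096 to 1735 CPM in nocodazole libraries and 1624 to 2063 CPM in DMSO libraries, most of it from Ngfr, which sensory neurons also express, and Sox10 and Foxd3 stayed below 0.3 CPM on average in each group. Fibroblast markers had 1 of 10 higher and 1 lower, with a sum of 49.6 to 80.2 CPM in nocodazole libraries and 51.5 to 75.9 CPM in DMSO libraries, most of it from Thy1, which neurons also express. Macrophage markers had 1 of 4 higher and summed to 4.55 to 5.98 CPM in nocodazole libraries and 2.71 to 3.09 CPM in DMSO libraries. Endothelial, pericyte and skeletal muscle markers had 0 called of 2, 7 and 2 tested, with sums of at most 4.31 CPM in either group. Of 7 tested proliferation genes, 2 rose. The part of these cells in the Hox values was not tested.

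Promoter windows of 250 bases before the gene start were held by RefSeq (build GRCm38.p6) for 22 of the 39 Hox genes, in 24 windows. Because members of several clusters fell together, 6 motifs were searched on both strands, and a match is a description of letters only. CCAAT was found in 14 of 24 windows (58.3%), against 33.9% of 32851 windows of all genes, and Hox windows had a median GC content of 58.6% against 52.4%. TATAAA was found in 4 windows (16.7%, against 12.4%), and the HOX-PBX motif TGATNNAT in 4 (16.7%, against 7.68%), some of whose letters can be shared with the ATF4 composite motif TGATGNAA. The AP-1 motif TGANTCA was found in 1 window (4.17%, against 6.75%), that of Hoxd11. The CRE motif TGACGTCA was in 0 of 24 (1.55% of all) and TGATGNAA in 0 of 24 (3.45% of all). The 4 windows below belong to the genes with a window and the lowest adjusted p in the test of the nocodazole change with against without inhibitor, a choice made after their values were seen. They are written 5′ to 3′ along the gene, and capitals mark the CCAAT match, which reads ATTGG here since it lies on the opposite strand. Hoxd1 and Hoxd10 lie on the plus strand, at chr2:74762730-74762979 and chr2:74691641-74691890, and Hoxa5 and Hoxa9 on the minus strand, at chr6:52204588-52204837 and chr6:52227371-52227620.
Hoxd1: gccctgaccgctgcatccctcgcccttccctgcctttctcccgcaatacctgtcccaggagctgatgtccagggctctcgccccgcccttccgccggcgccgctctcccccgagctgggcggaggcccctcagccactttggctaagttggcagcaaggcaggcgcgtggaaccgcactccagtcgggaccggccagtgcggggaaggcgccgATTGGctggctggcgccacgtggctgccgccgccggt
Hoxd10: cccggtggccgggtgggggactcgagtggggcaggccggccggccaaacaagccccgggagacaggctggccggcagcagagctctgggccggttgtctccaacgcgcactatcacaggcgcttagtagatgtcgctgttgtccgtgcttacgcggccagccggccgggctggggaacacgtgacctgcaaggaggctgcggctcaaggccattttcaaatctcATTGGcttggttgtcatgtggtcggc
Hoxa5: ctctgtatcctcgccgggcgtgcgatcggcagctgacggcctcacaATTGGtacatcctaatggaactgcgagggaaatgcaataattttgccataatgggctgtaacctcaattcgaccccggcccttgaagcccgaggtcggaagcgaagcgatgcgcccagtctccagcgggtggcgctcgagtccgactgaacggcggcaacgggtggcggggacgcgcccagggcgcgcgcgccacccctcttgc
Hoxa9: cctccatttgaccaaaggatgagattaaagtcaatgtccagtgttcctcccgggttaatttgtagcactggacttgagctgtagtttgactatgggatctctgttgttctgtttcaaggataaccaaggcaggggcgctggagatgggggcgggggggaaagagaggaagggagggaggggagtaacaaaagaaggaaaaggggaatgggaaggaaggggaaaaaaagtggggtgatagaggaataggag
The match began 37 bases before the start in Hoxd1, 26 in Hoxd10 and 204 in Hoxa5, and the Hoxa9 window held none. Any link between a match and the change with nocodazole was not tested.

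The inhibitor without nocodazole changed few Hox genes, and with 31 tested the counts do not set them apart from all tested genes. Relative to DMSO, 1 of 31 rose and 1 fell, while 5.78% of all tested genes rose and 7.24% fell, 13% in all (edgeR adjusted p below 0.05). The median Hox log2 change was -0.00, against 0.03 for all tested genes. All inhibitor libraries lay below all DMSO libraries in 4 Hox genes and above in 1, as in 11.6% and 10.1% of all tested genes. Hoxd1 was the gene that fell, with 16.0, 12.0, 9.33 and 21.0 CPM in inhibitor libraries and 30.4, 38.4, 25.1 and 28.4 CPM in DMSO libraries. Its groups did not overlap, though the inhibitor libraries were widely spread (log2 change -1.06 ± 0.201, edgeR adjusted p = 0.00313). Hoxa3 was the gene that rose, with 13.1, 14.2, 11.3 and 11.6 CPM in inhibitor libraries and 9.33, 9.78, 10.1 and 9.09 CPM in DMSO libraries (log2 change 0.39 ± 0.116, edgeR adjusted p = 0.0368). That call was lost in 9 of the 16 fits that left out 1 library. Hoxd9 and Hoxd10 had log2 changes of -0.44 and -0.36 with adjusted p of 0.0539 and 0.0749. The summed Hoxd level was 66.4 ± 8.15 CPM in inhibitor libraries and 83.9 ± 4.97 CPM in DMSO libraries, a ratio of 0.792 without overlap.

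Hoxb9 was uneven among inhibitor libraries. It had 6.89, 15.1, 13.1 and 5.24 CPM with the inhibitor, against 4.73, 2.17, 6.63 and 5.77 CPM with DMSO (log2 change 1.05 ± 0.384, edgeR adjusted p = 0.0802). Replicates 2 and 3 were high, replicate 1 lay just above the highest DMSO library and replicate 4 within the DMSO range. Replicates 2 and 3 also had the highest mitochondrial share of counts in their group, 1.39% and 1.78%, against 1.08% and 1.06% in inhibitor replicates 1 and 4. The part of this difference in the Hoxb9 level was not tested.

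**Figure D3:**
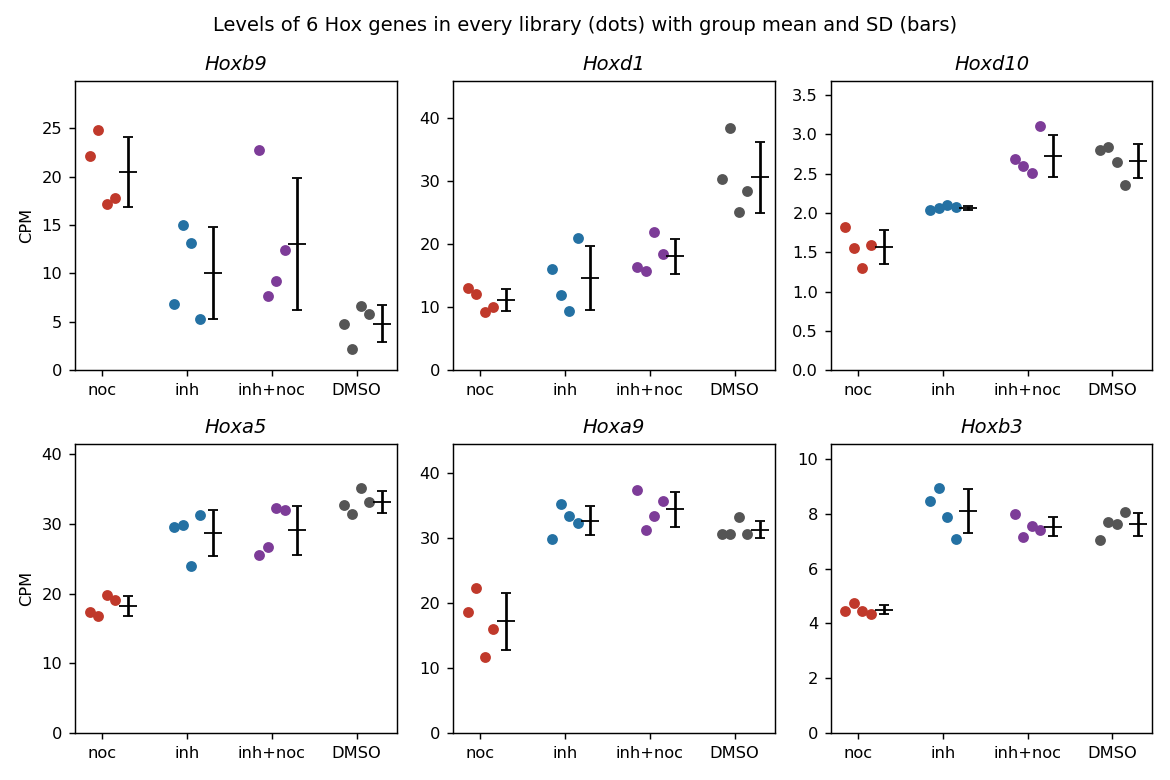
Levels of 6 Hox genes in CPM in nocodazole (noc), inhibitor (inh), inhibitor plus nocodazole (inh+noc) and DMSO libraries, with dots for libraries and bars for the mean and SD of 4. Hoxb9 stood highest with nocodazole at 17.2 to 24.9 CPM, and the other 5 genes stood lowest on average with nocodazole.

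Nocodazole in the presence of the inhibitor changed no Hox gene past the threshold. Between inhibitor plus nocodazole and inhibitor, 0 of 31 were called by edgeR and 0 by DESeq2, with 1 higher and 1 lower at an unadjusted p below 0.05. Among all tested genes 0.0835% were called, 0.0783% higher and 0.00522% lower, so this comparison had few calls of any kind. The median Hox log2 change was 0.02, against 0.00 for all tested genes, with a median SE of 0.141 for the Hox genes. Hoxd10 was the only Hox gene whose groups did not overlap, here above, while 2.03% of all tested genes lay wholly above and 1.25% wholly below. It had 2.69, 2.60, 2.51 and 3.11 CPM with inhibitor plus nocodazole, against 2.04, 2.06, 2.10 and 2.08 CPM with the inhibitor (log2 change 0.40 ± 0.130, edgeR adjusted p = 0.478). For Hoxa5 the log2 change was 0.02 with a 95% interval of -0.16 to 0.20, and for Hoxd1 it was 0.31 with an interval of -0.09 to 0.70. Both intervals leave out the log2 changes seen without inhibitor, -0.86 and -1.46. For Hoxb9 the log2 change was 0.38 with a wide interval of -0.34 to 1.10.

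The difference between the nocodazole changes with and without inhibitor was tested directly. It was called above 0 for 10 of 31 Hox genes and below 0 for 1 (edgeR adjusted p below 0.05). Among all tested genes 9.52% were called above 0 and 9.20% below, 18.7% in all. Called or not, the estimate was positive for 30 Hox genes and negative for 1. The median Hox difference was 0.41 log2, against -0.00 for all tested genes. In the anterior class Hoxd1 differed by 1.77 ± 0.286 log2 (edgeR adjusted p = 0.000599) and Hoxb3 by 0.66 ± 0.127. Hoxa3 differed by 0.51 ± 0.166 (edgeR adjusted p = 0.0418), a call that was lost in 12 of the 16 fits that left out 1 library and with no filter on low counts. Hoxd1 was also lower with the inhibitor alone than with DMSO, as given above, and the difference holds both changes. In the middle class Hoxa5 differed by 0.88 ± 0.132 log2 (edgeR adjusted p = 0.000344), Hoxb6 by 0.82, Hoxa4 by 0.64 and Hoxa7 by 0.47, and the call of Hoxa4 was lost in 3 of those 16 fits. In the posterior class Hoxd10 differed by 1.16 ± 0.186 log2 (edgeR adjusted p = 0.000561), Hoxa10 by 1.01 ± 0.201 (0.00283) and Hoxa9 by 0.94 ± 0.183 (0.0024). By cluster, 6 of 9 Hoxa genes, 2 of 8 Hoxb genes, 0 of 7 Hoxc genes and 2 of 7 Hoxd genes were called above 0.

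Hoxb9 was the gene called below 0, with a difference of -1.70 ± 0.528 log2 (edgeR adjusted p = 0.034). This call was lost in 9 of the 16 fits that left out 1 library, with adjusted p up to 0.0837. Without inhibitor plus nocodazole replicate 1, which stood apart on the first principal component, the difference was -2.11 with an adjusted p of 0.00402.

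With nocodazole present, adding the inhibitor went with higher Hox levels. Between inhibitor plus nocodazole and nocodazole, 15 of 31 Hox genes were higher (48.4%) and 0 lower, while 17.7% of all tested genes were higher and 16.2% lower, 33.9% in all (edgeR adjusted p below 0.05). DESeq2 also gave 15 calls, and at an unadjusted p below 0.05 edgeR gave 17 higher and 1 lower. This comparison shares its nocodazole libraries with that of nocodazole over DMSO, so the values are given side by side only. The median Hox log2 change was 0.36, against 0.00 for all tested genes, and in 14 of 31 genes all inhibitor plus nocodazole libraries lay above all nocodazole libraries, as in 14.2% of all tested genes. The 15 genes were 8 Hoxa genes (Hoxa2 to Hoxa7, Hoxa9 and Hoxa10), Hoxb3, Hoxb6, Hoxc6, Hoxc8, Hoxd1, Hoxd3 and Hoxd10.

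Hoxa9 changed most among these genes. It had 37.5, 31.2, 33.4 and 35.8 CPM with inhibitor plus nocodazole, against 18.6, 22.3, 11.8 and 16.1 CPM with nocodazole (log2 change 1.00 ± 0.131, edgeR adjusted p = 1.96e-05). Hoxb3 had 7.98, 7.14, 7.57 and 7.40 CPM with inhibitor plus nocodazole and 4.44, 4.73, 4.44 and 4.36 CPM with nocodazole (log2 change 0.74, edgeR adjusted p = 9.78e-06). Hoxa3 had 11.6, 10.4, 10.4 and 9.41 CPM with inhibitor plus nocodazole, against 5.65, 6.85, 4.35 and 5.53 CPM with nocodazole (log2 change 0.90). None of these pairs of groups overlapped, and the inhibitor plus nocodazole libraries lay near the DMSO range of 30.6 to 33.3 CPM for Hoxa9 and 7.06 to 8.07 CPM for Hoxb3. Hoxa5 had 25.5, 26.7, 32.2 and 32.0 CPM with inhibitor plus nocodazole, against 17.4, 16.7, 19.8 and 19.2 CPM with nocodazole (log2 change 0.67, edgeR adjusted p = 4.09e-05). Hoxb6 had 5.19, 5.39, 3.94 and 6.44 CPM with inhibitor plus nocodazole and 2.65, 2.84, 2.66 and 3.15 CPM with nocodazole (log2 change 0.89). Hoxc6 had 4.28, 4.26, 3.79 and 4.61 CPM with inhibitor plus nocodazole and 2.79, 2.75, 2.78 and 3.06 CPM with nocodazole (log2 change 0.57). These groups were also separate.

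Hoxd1 stayed lower in both inhibitor groups than in DMSO. It had 16.3, 15.7, 21.8 and 18.5 CPM with inhibitor plus nocodazole, against 13, 12.1, 9.22 and 10 CPM with nocodazole (log2 change 0.71 ± 0.204, edgeR adjusted p = 0.013), and no inhibitor plus nocodazole library reached the lowest DMSO library at 25.1 CPM. Hoxb9 had 22.8, 7.71, 9.25 and 12.4 CPM with inhibitor plus nocodazole, against 22.1, 24.9, 17.2 and 17.8 CPM with nocodazole (log2 change -0.65 ± 0.363, edgeR adjusted p = 0.189). Replicate 1 of inhibitor plus nocodazole lay within the nocodazole range and the other 3 below it. That library also had the highest mitochondrial share of its group, 1.71% against 0.865 to 1.09% in replicates 2 to 4. Among replicates 2, 3 and 4 the order was reversed, with shares of 1.09%, 0.944% and 0.865% and Hoxb9 at 7.71, 9.25 and 12.4 CPM. Without replicate 1, the log2 change was -1.06 and the edgeR adjusted p 0.0222. The part of library quality in Hoxb9 was not tested.

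**Figure D4:**
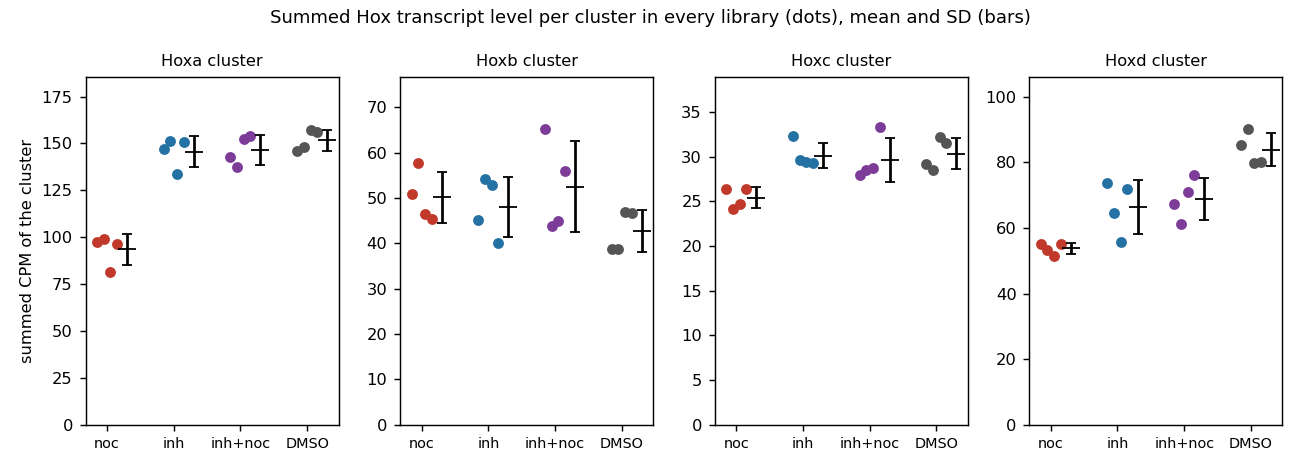
Summed CPM of each Hox cluster in nocodazole (noc), inhibitor (inh), inhibitor plus nocodazole (inh+noc) and DMSO libraries, with dots for libraries and bars for the mean and SD of 4. The Hoxa sum was 93.6 CPM on average with nocodazole and 146 to 152 CPM in the other groups, and the Hoxd sum was highest with DMSO at 83.9 CPM.

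The cluster sums followed the single genes. The Hoxa sum was 147 ± 7.88 CPM with inhibitor plus nocodazole and 93.6 ± 8.27 CPM with nocodazole, a ratio of 1.57. The ratios of these groups were 1.05 for Hoxb, 1.17 for Hoxc and 1.28 for Hoxd, with overlap for Hoxb only among the 4 clusters. The summed level of all Hox genes was 303, 271, 297 and 319 CPM with inhibitor plus nocodazole, above all nocodazole libraries at 204 to 235 CPM.

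Regulators and partners of Hox genes were described by lists. Of 9 TALE cofactor genes, 3 fell with nocodazole relative to DMSO and 1 rose, with a median log2 change of -0.13. That is 33.3% lower and 11.1% higher, against 19.0% and 18.6% of all tested genes, and with 9 genes the counts do not set the list apart. Pknox2 had the largest fall (log2 change -1.17 ± 0.115), followed by Meis2 (-0.62 ± 0.0749) and Pbx3 (-0.34), while Pknox1 rose (0.49 ± 0.0978). Meis2 averaged 11.6 CPM in nocodazole, 24.0 CPM in inhibitor plus nocodazole and 17.8 CPM in DMSO libraries, and was higher in inhibitor plus nocodazole than in nocodazole (log2 change 1.05).

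Among 32 Polycomb genes, 11 rose (34.4%) and 3 fell (9.38%) with nocodazole, with a median log2 change of 0.11, while among all tested genes 18.6% rose and 19.0% fell, 37.5% in all. Cbx6, a chromobox subunit gene and the highest of the list, fell (log2 change -0.71 ± 0.0813), and Cbx2, another chromobox gene, rose (0.79 ± 0.0935). Pcgf5, a subunit gene of a variant complex, rose to 3.63 CPM in nocodazole libraries, against 0.402 CPM in DMSO libraries. Ezh2, the H3K27 methyltransferase gene, averaged 6.94 CPM in nocodazole and 2.66 CPM in DMSO libraries (log2 change 1.38 ± 0.225). Of 17 genes of MLL complexes, H3K27 demethylases and related factors, 4 rose (23.5%) and 6 fell (35.3%), with a median of -0.05. Kdm6b, which removes H3K27 methylation, rose (1.05 ± 0.106), Kmt2a, the founding MLL gene, rose (0.29 ± 0.0585), and Mllt3 (-0.57) and Men1 (-0.40) fell. Both lists thus held members that moved in opposite directions.

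Of 16 tested genes of retinoic acid signalling and axial regulation, 3 rose (18.8%) and 2 fell (12.5%) with nocodazole, near or below the 18.6% and 19.0% of all tested genes, so the counts do not set the list apart. Cyp26b1, which degrades retinoic acid, rose (1.90 ± 0.448), while Gdf11, a signal of the trunk-to-tail transition in the embryo, fell (-0.87 ± 0.148), as did the receptor gene Rarg (-0.86 ± 0.164). Cdx1, Cdx2 and Cdx4, the embryonic activators of posterior Hox genes, averaged at most 0.0145 CPM in nocodazole and 0.0135 CPM in DMSO libraries.

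Of 16 noncoding transcripts of the Hox clusters, 6 passed the filter, and 3 of these fell and 3 did not pass the test, while 19.0% of all tested genes fell. Of the 6 tested transcripts, Hoxd3os1 (log2 change -0.55), Haglr (-0.65) and Hoxaas3 (-0.52) fell with nocodazole and none rose, though these overlap Hoxd3, Hoxd4, Hoxa3 or Hoxa7 in the annotation and can share reads with them. Of 9 tested protein-coding neighbours outside the clusters, Mtx2 fell (-0.36 ± 0.0750) and none rose, with a median of -0.03. Lnpk and Atf2, which lie on the same side of the Hoxd cluster, had log2 changes of -0.03 and -0.06.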

How the data were processed

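Total RNA of 16 libraries was measured after removal of ribosomal RNA, per the labels' protocols. The deposited counts are whole numbers, with 1 row per Ensembl identifier, and the submitters' processing notes name STAR, Salmon and GRCm39 without versions. Which tool made the counts, the strand setting and the treatment of shared reads are not given in the sources used here. Symbols were matched for 52080 of 55356 identifiers (94.1%) with GENCODE M21 on GRCm38, used also for exon lengths (union of exons) and overlaps.

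Genes were tested with edgeR 4.0.16 in R 4.3.3 (trimmed mean of M-values scaling, factors 0.959 to 1.06; filterByExpr by group; quasi-likelihood F test on all 16 libraries), with Benjamini-Hochberg adjustment over 19156 genes and calls below 0.05. SE were derived from the F statistic, and 95% intervals are normal ones of 1.96 SE, somewhat narrower than the F test implies. CPM used the scaled library sizes, in which 1 read is worth 0.0230 to 0.0325 CPM. The procedure was tested on simulated data. Log2 changes of 1 were recovered for 53.6 to 71.1% of changed genes over the comparisons. Those of 0.5 were recovered for 34.3 to 42.4% between pairs of groups and 13.3% for the difference. Few genes changed in these simulations, so recovery can differ where many do. A gene that was not called may still have changed. No replicate was a copy (24 pairs, chi-square over its degrees of freedom 7.91 to 49.7).

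Alternatives were DESeq2 1.42.0, RLE scaling, 2 other filters, a replicate block, fits on the compared groups, a longest-transcript length and leaving out each library. Full statistics were given for Hox genes called (at most 10 per comparison by adjusted p), the highest per kb and the most posterior measured of each cluster, and at most 4 genes per list. A few further genes were named after their values were seen. The members and lists were chosen with earlier results of these data known. A few genes of the sets counted are not reported by name here.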

Additional observations from a re-analysis of the deposited data

Results flagged for a closer look

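The difference between the nocodazole changes with and without the inhibitor passed the edgeR test (adjusted p below 0.05) for 11 Hox genes. In log2 it was 1.77 for Hoxd1, 1.16 for Hoxd10, 1.01 for Hoxa10, 0.94 for Hoxa9, 0.88 for Hoxa5, 0.82 for Hoxb6, 0.66 for Hoxb3, 0.64 for Hoxa4, 0.51 for Hoxa3, 0.47 for Hoxa7 and -1.70 for Hoxb9. A positive value means that the log2 change with nocodazole was higher in the presence of the inhibitor than without it, and a negative one that it was lower. With 1 library left out, the calls of Hoxa3, Hoxb9 and Hoxa4 were lost in 12, 9 and 3 of 16 fits.

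In 2 of 64 groups of 4 libraries, over 16 Hox genes, a single library lay far from the rest by Dixon's ratio, where chance gives about 1 in 20. Hoxc6 had 3.06 CPM in nocodazole replicate 4, against 2.75 to 2.79 CPM in nocodazole replicates 1 to 3. Hoxa9 had 33.3 CPM in DMSO replicate 3, against 30.6 CPM in each of DMSO replicates 1, 2 and 4. Both steps are small beside the differences between groups given for these genes.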

How the results depend on the processing

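The count of Hox genes lower with nocodazole was 14 to 17 with 1 library left out, that of higher ones 1 to 1, and the median log2 change -0.50 to -0.40. For inhibitor plus nocodazole over nocodazole, 13 to 15 were higher and 0 to 1 lower (median 0.31 to 0.43). The tested difference gave 8 to 11 called above 0 and 0 to 1 called below (median 0.34 to 0.49). Inhibitor over DMSO gave 0 to 2 higher and 1 to 2 lower (median -0.07 to 0.01). For inhibitor plus nocodazole over inhibitor no Hox gene was called in any of these fits (0 to 0), and the median was -0.02 to 0.05. Over all genes, calls were 6160 to 7770 for nocodazole, 1242 to 3087 for inhibitor, 3 to 88 for inhibitor plus nocodazole over inhibitor, 5484 to 7218 for inhibitor plus nocodazole over nocodazole and 2607 to 5218 for the difference. No value changed sign in a called result.

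Hox genes lower with the inhibitor were 2 in place of 1 under RLE scaling, the replicate block, fits on the compared groups only and DESeq2, each adding Hoxd9, and with no filter on low counts 0 were higher, Hoxa3 being lost. Calls over all genes for inhibitor plus nocodazole over inhibitor were 16 in the reported fit, 28 with no filter, 5 with the replicate block, 6 with the compared groups only and 125 with DESeq2. With the replicate block 0 Hox genes had a difference called below 0, Hoxb9 reaching an edgeR adjusted p of 0.0558. Replicate numbers gave no clear pairing of the samples. Of 24 same-numbered pairs, 8 had deviations correlated above 0.1 (range -0.399 to 0.232). In every other group at once, 0 libraries correlated best with their own number, though some did in part of the groups. The cause of these changes was not tested. With no filter, and likewise with the compared groups only, 14 Hox genes were lower with nocodazole, and with the longest transcript as length 24 reached 1 CPM per kb in DMSO libraries. Cluster ratios of nocodazole over DMSO under RLE scaling were 0.618, 1.18, 0.839 and 0.642 for Hoxa, Hoxb, Hoxc and Hoxd, an alternative added after the data were seen, as were those of the list counts.

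Single calls depended on libraries. For nocodazole over DMSO, Hoxb5 was lost in 7 of 16 fits, Hoxa2 and Hoxc6 in 5 and Hoxd4 in 4. For the difference, Hoxa3 was lost in 12, Hoxb9 in 9 and Hoxa4 in 3, without inhibitor replicate 2, inhibitor plus nocodazole replicate 4 or DMSO replicate 4 (adjusted p up to 0.0569). For inhibitor plus nocodazole over nocodazole, Hoxd1 (0.0533) and Hoxc8 (0.0518) were lost without inhibitor plus nocodazole replicate 3, Hoxa6 in 2 fits and Hoxd3 in 4. Hoxa3 with the inhibitor was lost when any 1 DMSO library was left out, and without inhibitor replicates 1 or 2, nocodazole replicate 4 or inhibitor plus nocodazole replicates 2 or 3 (adjusted p up to 0.129). Counting error limits Hoxa2, Hoxb8, Hoxc11 and Hoxd11, and the 8 genes below the filter were tested only where no filter was used.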
